A study of Mus musculus with 24 samples.

Results

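The switch of the mammary gland to milk secretion was followed in C57 mice, in glands taken on lactation day 8 and in glands of non-lactating mice. The comparison used 6 of the 24 samples of the series, 3 glands on day 8 and 3 non-lactating glands, chosen by the genotype, stage and mouse number in their titles. The series measured polyadenylated RNA in snap frozen inguinal mammary glands of 2 genotypes on a BL/6 background, labelled C57 and NZB. Each genotype has 4 stages of 3 mice, lactation days 8, 14 and 21 and non-lactating. The names stand for mice with a BL/6 nuclear background that carry mitochondrial DNA of C57 or of NZB origin, and the series title speaks of organelles under the stress of lactation. The C57 day 8 glands came from mice of genotype BL/6 C57 labelled F1, F2 and F3, and the C57 non-lactating glands from other mice of that genotype, again labelled F1, F2 and F3. No transgene, drug or age is given for either group. The labels do not say whether the mice shared a litter or a day, so each p-value measures the spread between these 3 glands a side.

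A lactating gland is built from alveoli, in which luminal cells make milk and contractile myoepithelial cells push it into ducts, set in fat, connective tissue and vessels. Prolactin acts through the kinase JAK2 and the transcription factor STAT5 on the genes of caseins and whey proteins. The luminal cells also make lactose, which draws water into milk, and build triglyceride droplets that leave the cell wrapped in plasma membrane. They pump calcium and phosphate and carry antibodies from plasma cells into milk.

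The table holds 2 columns for each mouse, which were averaged with equal weight and counted as 1 sample. The column names carry the tags R1 and R2. What these stand for is not given, so the columns are not taken as separate libraries. In non-lactating mouse 2 the columns were unequal, with 2174916 and 11888708 reads, and the chi-square per gene between them was 1.6351, against 0.5419 to 0.8544 in the other 5 glands. A column held on average 20378683, 20015452 and 22115122 reads in the day 8 glands and 14553308, 7031812 and 15884405 reads in the non-lactating glands. Non-lactating mouse 2 stood apart from its group. The chi-square per gene, which is near 1 where 2 libraries differ by counting noise alone, was 61.14 and 64.55 between it and mice 1 and 3, against 11.65 between mice 1 and 3. Markers of hormone-sensing luminal cells summed to 5489 CPM (counts per 1000000 reads, here on the non-milk scale described below) in mouse 2, against 2300 and 2267 CPM in mice 1 and 3. White adipocyte markers summed to 10768 CPM in mouse 2, against 17273 and 18787 CPM. Non-lactating mouse 3 carries the genotype tag NZB and the title C57. It was kept as C57, and it held 3591 CPM of Gm29216, which the other C57 glands held at 294.5 to 2926 CPM and the NZB glands at no more than 0.00 CPM. Counts of list members that moved by over 1.5 times without mouse 2 or mouse 3 are given with and without them. Smaller shifts are given only in part.

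Milk protein transcripts filled the day 8 gland. The 17 genes of the caseins, whey proteins and other secreted milk proteins held 70.72, 75.21 and 75.54% of all counts in the day 8 glands and 0.45, 0.44 and 0.48% in the non-lactating glands. The means were 73.82% ± 2.69 on day 8 and 0.46% ± 0.02 in non-lactating glands (SD, n = 3 each), a difference of 73.36 percentage points. The groups did not overlap. A 2-sided exact permutation test gave p = 0.1, its lowest possible value with 3 mice a side. The 5 caseins alone held 60.9% ± 2.36 on day 8 and 0.26% ± 0.02 in non-lactating glands.

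The caseins are the proteins of the milk micelle, and their genes lie within 1 stretch of chromosome 5 (GRCm38), where Csn1s1 begins at 87666208 and Csn3 ends at 87932665. On the deposited CPM scale all 5 were called higher on day 8, where 2.54% of the 14714 genes tested were. Csn2, beta-casein, had 277820, 263646 and 288309 CPM on day 8 and 1001, 1013 and 1084 CPM in non-lactating glands. It was the gene with the largest share of the day 8 counts, 27.7% ± 1.24 (SD, n = 3). Csn1s1, alpha-s1-casein, had 134352, 166958 and 167529 CPM on day 8 and 672.4, 720.6 and 702.1 CPM in non-lactating glands. Csn3, the kappa-casein of the micelle surface, had 56064, 60082 and 58981 CPM on day 8 and 323.4, 681.4 and 344.4 CPM in non-lactating glands, of which mouse 2 was the highest. The log2 differences were 8.06 ± 0.28 for Csn2, 7.80 ± 0.26 for Csn1s1 and 7.10 ± 0.30 for Csn3 (limma SE; adjusted p = 3.3e-09, 2.8e-09 and 9.9e-09).

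Wap, the whey acidic protein of rodent milk, had 83965, 103235 and 93337 CPM on day 8 and 365.1, 352.7 and 372.0 CPM in non-lactating glands. Per kilobase of annotated exon, Wap stood highest of the milk protein genes on day 8 at 92800 ± 9560 CPM, ahead of Csn2 at 39900 ± 1790 CPM (SD, n = 3). The exon lengths sum all annotated transcripts, so they overstate the length of genes with many transcripts. The sum was 1008 bases for Wap and 6926 for Csn2, where it covers nearly the whole gene (chr5:87692624-87699630). The order of Wap and Csn2 per kilobase therefore cannot be settled from these lengths, and before division by length Csn2 had the higher CPM. Of the 12 whey and other secreted milk proteins 10 rose and 1 fell on the deposited scale. Glycam1, a mucin-like milk protein, had 12315, 13521 and 12509 CPM on day 8 and 39.54, 28.26 and 38.25 CPM in non-lactating glands, the largest log2 difference of these genes (8.47 ± 0.19, adjusted p = 3.5e-10). Lalba, the alpha-lactalbumin subunit of lactose synthase, rose by a log2 difference of 6.94 ± 0.25, and Cel, the bile salt-stimulated lipase, by 7.54 ± 0.23 (adjusted p = 3.8e-09 and 1.6e-09). The iron binders Trf and Ltf rose by 4.01 ± 0.28 and 1.38 ± 0.28 (adjusted p = 1.7e-07 and 0.00056). Spp1, osteopontin, had 634.7, 65.03 and 66.38 CPM on day 8, so that mouse 1 was far above the others, and 2.92, 8.55 and 2.93 CPM in non-lactating glands. Slpi, a secreted protease inhibitor, was the member that fell, on a scale where 93.2% of all genes tested were called lower. It had 0.34, 0.15 and 0.23 CPM on day 8 against 1.10, 2.68 and 1.48 CPM in non-lactating glands, all low levels. On the non-milk scale Slpi had 1.17, 0.60 and 0.92 CPM on day 8 and 1.10, 2.70 and 1.49 CPM in non-lactating glands, which overlap. Prol1 had 10.38, 6.57 and 4.68 CPM on day 8 and 5.84, 4.70 and 1.83 CPM in non-lactating glands, which overlap; its adjusted p was 0.067, and 0.033, 0.018 and 0.025 without day 8 mouse 3, non-lactating mouse 1 or non-lactating mouse 2.

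**Figure D1:**
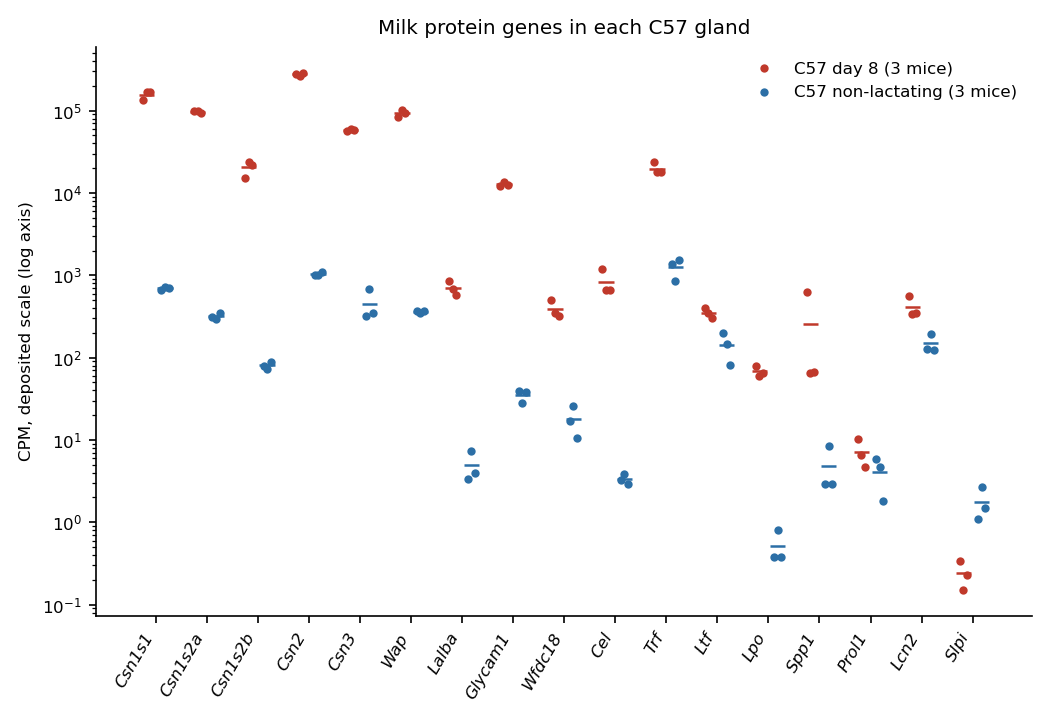
CPM on the deposited scale (vertical log axis) of the 17 milk protein genes in each of 3 C57 day 8 glands (left of each pair) and 3 C57 non-lactating glands; points are mice and bars are means. All but Prol1 and Slpi lie wholly higher on day 8, and Slpi lies wholly lower.

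The upstream sequence of 3 of these genes is shown because each holds the letters TTCNNNGAA, the motif that STAT5 is known to bind. It reads the same on both strands. It was found in the 250 bases before the RefSeq start of 2 of the 3 caseins in the promoter table and of 1 of the 11 whey and other milk proteins there (Glycam1), and in 7.02% of all 32851 promoters of that table. A gene was counted if any of its promoters held the motif, whereas the 7.02% is a share of promoters, an unlike measure. A match is a description of the letters. The capitals mark the motif in RefSeq sequence of build GRCm38.p6, written 5′ to 3′ on the strand of the gene. The Csn2 window is chr5:87699426-87699675, minus strand, with the motif 93 to 85 bases before the start. The Csn1s1 window is chr5:87665958-87666207, plus strand, with the motif 100 to 92 bases before the start. The Glycam1 window is chr15:103565082-103565331, minus strand, with the motif 145 to 137 bases before the start.
Csn2: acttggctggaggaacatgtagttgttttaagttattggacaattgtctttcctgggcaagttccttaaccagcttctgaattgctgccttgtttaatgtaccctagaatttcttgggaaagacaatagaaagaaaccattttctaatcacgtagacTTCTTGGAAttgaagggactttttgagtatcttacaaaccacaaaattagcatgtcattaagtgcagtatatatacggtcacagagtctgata
Csn1s1: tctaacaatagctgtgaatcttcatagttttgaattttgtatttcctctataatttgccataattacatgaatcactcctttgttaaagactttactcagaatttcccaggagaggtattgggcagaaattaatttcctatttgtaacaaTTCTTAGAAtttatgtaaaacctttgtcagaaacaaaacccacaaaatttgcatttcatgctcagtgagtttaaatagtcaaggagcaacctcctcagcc
Glycam1: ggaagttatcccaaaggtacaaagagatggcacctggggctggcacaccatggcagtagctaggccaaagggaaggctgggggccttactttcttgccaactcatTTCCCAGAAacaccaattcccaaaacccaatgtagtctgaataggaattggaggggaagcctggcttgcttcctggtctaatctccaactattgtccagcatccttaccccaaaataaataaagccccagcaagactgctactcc

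With most reads on milk protein genes, the CPM of almost every other gene was lower on day 8. On the deposited scale 374 genes rose and 13710 fell, 93.2% of the 14714 tested, and the median log2 difference was −1.9. The other genes are therefore described on a non-milk scale, on which the CPM of each gland, without the 17 genes of milk proteins, again sums to 1000000. On that scale 2179 of 14697 genes rose (14.8%) and 5598 fell (38.1%), with a median log2 difference of −0.36. The values of the 2 groups did not overlap for 9144 genes (62.2%). Scaling by the median of ratios, which assumes that most genes do not differ, moved the differences up by a median of 0.35 on the log2 scale, and 3687 genes then rose and 3937 fell. The scales disagreed in sign for 1240 called genes, each higher on the non-milk and lower on the deposited scale; 359 were higher on both and 5598 lower on both. Without non-lactating mouse 2, 2855 genes rose and 5474 fell on the non-milk scale; without mouse 3 the counts were 1810 and 5184. A direction given below is that on the non-milk scale, a change in a gene's share of the non-milk RNA. Counts of list members below stand beside the shares of all genes. These were 14.8% higher and 38.1% lower on the non-milk scale, and 2.54% higher and 93.2% lower on the deposited scale. In bulk tissue fewer cells of a type and less RNA per cell cannot be told apart.

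**Figure D2:**
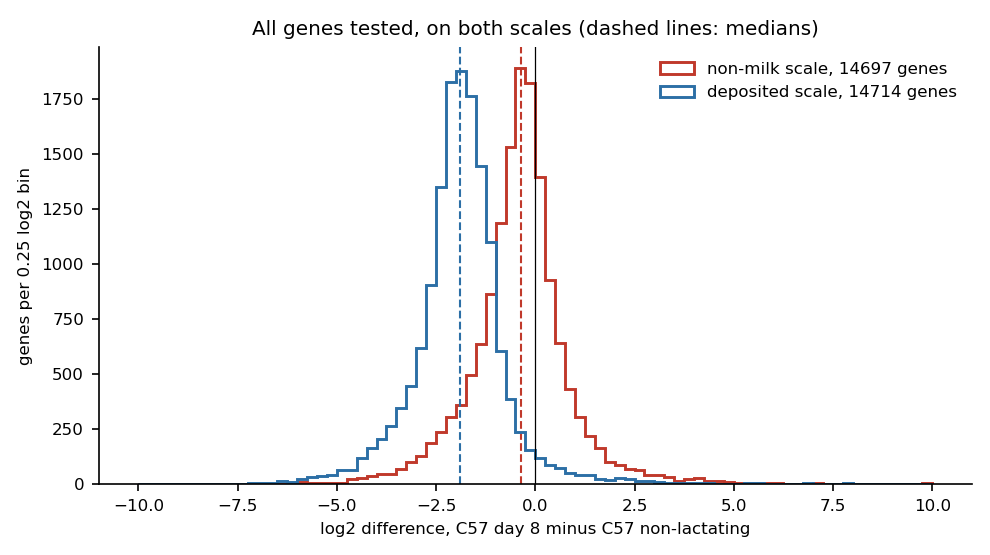
Number of genes (vertical axis, per 0.25 log2 bin) by log2 difference, C57 day 8 minus C57 non-lactating (horizontal axis), for all genes tested on the non-milk scale (red) and the deposited scale (blue). The dashed medians stand at −0.36 and −1.9, both left of 0.

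The increases with the highest log2 differences outside the milk proteins were those of Lao1, Slc34a2 and Fabp3. Lao1, an L-amino acid oxidase found in mouse milk, had 10216, 16223 and 15102 CPM on day 8 and 14.15, 12.85 and 13.13 CPM in non-lactating glands, a log2 difference of 9.88 ± 0.19 (adjusted p = 1.7e-10). Slc34a2, a sodium-phosphate cotransporter of the apical membrane, had 6276, 5603 and 5806 CPM on day 8 and 4.21, 6.47 and 6.07 CPM in non-lactating glands (9.82 ± 0.16, adjusted p = 7.4e-11). Both lay far from overlap, and both also rose on the deposited scale (7.95 and 7.89). Chrdl2, chordin-like 2, a secreted antagonist of bone morphogenetic proteins, had 446.3, 319.6 and 339.0 CPM on day 8 and 0.38, 0.21 and 0.13 CPM in non-lactating glands. Slc28a3, a concentrative nucleoside transporter, rose by a log2 difference of 7.59 ± 0.27 and Slc9a4, a sodium-proton exchanger, by 7.27 ± 0.22 (adjusted p = 2e-08 and 5.5e-09). Wfdc3 and Ceacam10, a whey acidic protein domain gene and an adhesion molecule family member, rose by 7.20 ± 0.22 and 7.18 ± 0.25, and the gap junction protein Gjb1 (connexin 32) by 6.85 ± 0.19.

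Carriers of calcium, phosphate and zinc gave 13 of 22 tested members higher and 7 lower; on the deposited scale 11 were higher and 10 lower. Atp2b2, the plasma membrane pump known to move calcium into milk, had 1829, 2211 and 2302 CPM on day 8 and 3.59, 3.96 and 3.45 CPM in non-lactating glands, a log2 difference of 8.82 ± 0.15 (adjusted p = 7.4e-11). The metal importer Slc39a8 had 1490, 1399 and 1439 CPM on day 8 and 16.12, 22.68 and 16.79 CPM in non-lactating glands. Orai1, the store-operated calcium channel, rose 17-fold. The pump Atp2b4 fell to 61.75, 56.92 and 73.66 CPM on day 8, against 304.4, 226.2 and 316.6 CPM in non-lactating glands, and Stim1, the store sensor that gates Orai1, fell by 1.90 ± 0.15 on the log2 scale (adjusted p = 2.9e-06).

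Sugar, amino acid and water transport split within each list. Of 18 genes of lactose synthesis and glucose supply 6 rose and 4 fell (3 and 14 on the deposited scale). B4galt1, the galactosyltransferase of lactose synthase, had 3686, 3101 and 3127 CPM on day 8 and 114.0, 217.0 and 175.1 CPM in non-lactating glands (4.33 ± 0.22, adjusted p = 1.6e-07). The glucose transporter Slc2a1 rose 7.67-fold, while the insulin-regulated transporter Slc2a4 of fat and muscle fell by 3.60 ± 0.26 on the log2 scale (adjusted p = 1.5e-06). Slc35a2, which brings UDP-galactose into the Golgi, rose 3.68-fold and was 0.02 on the deposited log2 scale. Of 19 amino acid transporters 9 rose and 6 fell (3 and 11 on the deposited scale). Slc7a5, the large neutral amino acid exchanger, had 875.3, 649.2 and 673.8 CPM on day 8 and 12.01, 15.48 and 15.72 CPM in non-lactating glands. Slc1a5, a glutamine carrier, moved in the other direction, with 37.29, 29.22 and 33.27 CPM on day 8 against 836.3, 549.8 and 1019 CPM in non-lactating glands, which do not overlap (−4.51 ± 0.21, adjusted p = 9.3e-08). Of 17 chloride, water and monocarboxylate genes 5 rose and 9 fell (2 and 13 on the deposited scale). The water and glycerol channel Aqp3 rose 18.9-fold and the potassium channel Kcnn4 13.1-fold, while the cotransporter Slc12a2 fell to 137.8, 118.9 and 148.5 CPM on day 8, against 1509, 4200 and 1396 CPM in non-lactating glands, mouse 2 being the highest.

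Genes that carry antibodies into milk and genes of the plasma cells that make them were among those that rose. Pigr, the receptor that moves polymeric immunoglobulin across the luminal cell, had 2270, 2257 and 2197 CPM on day 8 and 4.63, 8.43 and 5.72 CPM in non-lactating glands (8.30 ± 0.19, adjusted p = 5.3e-10). Ccl28, the chemokine that draws IgA plasma cells, had 635.4, 1011 and 1189 CPM on day 8 and 5.66, 13.05 and 6.86 CPM in non-lactating glands. Igha and Jchain, the IgA heavy chain and the joining chain, rose 19.6-fold and 6.42-fold. The 6 tested genes of antibody secretion split into 4 higher and 2 lower on both scales; Fcgrt, the neonatal Fc receptor, fell by 3.13 ± 0.27 on the log2 scale (adjusted p = 4.5e-06). The second one that fell was Ccr10, at 0.34, 0.91 and 0.83 CPM on day 8 and 2.14, 1.71 and 2.40 CPM in non-lactating glands, a call lost without day 8 mouse 1 or non-lactating mouse 1 or 3 (adjusted p = 0.053, 0.053 and 0.067). The 6 tested plasma cell markers split into 3 higher (Jchain, Pou2af1 and Derl3; 2 on the deposited scale) and 1 lower (Sdc1; 3 on the deposited scale), the sum of all 8 in the table ranging from 131.5 to 141.5 CPM on day 8 and from 70.76 to 106.0 CPM in non-lactating glands; without non-lactating mouse 2 the lower ones were 2. Of 8 tested B and T cell markers Cr2 fell and none rose; 2 fell without day 8 mouse 3 or non-lactating mouse 3.

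The coat of the milk fat globule rose as a list. Of its 14 genes 11 rose and 1 fell, with a median log2 difference of 4.05, against −0.36 over all genes; on the deposited scale 10 rose and 4 fell, with a median of 2.12. Btn1a1, butyrophilin, a receptor-like protein of the globule membrane, had 5270, 4581 and 4910 CPM on day 8 and 28.16, 88.71 and 31.85 CPM in non-lactating glands (6.80 ± 0.35, adjusted p = 1.4e-07). Its partner Xdh, xanthine oxidoreductase, had 4488, 4349 and 4639 CPM on day 8 and 288.5, 224.0 and 311.4 CPM in non-lactating glands (4.04 ± 0.18, adjusted p = 4.7e-08). The adhesion glycoprotein Mfge8 rose 16.7-fold and the mucin Muc15 57.7-fold. Of the lipid droplet proteins of the CIDE family, Cidea had 649.2, 869.2 and 755.5 CPM on day 8 and 2.97, 0.55 and 7.37 CPM in non-lactating glands. Cidec, its relative of the white fat cell, had 22.46, 36.17 and 33.18 CPM on day 8 and 638.8, 373.9 and 720.1 CPM in non-lactating glands. The 2 relatives thus moved in opposite directions without overlap, by 7.66 ± 0.46 and −4.17 ± 0.25 (adjusted p = 4.3e-07 and 4.4e-07). Fabp3, a fatty acid binding protein, had 3487, 4457 and 3856 CPM on day 8 and 2.69, 5.10 and 2.91 CPM in non-lactating glands, while Fabp4, the form of fat cells, had 174.4, 182.3 and 204.8 CPM on day 8 and 2676, 1615 and 2578 CPM in non-lactating glands. Folr1, the folate receptor of milk, rose 142-fold.

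Within fatty acid synthesis the genes differed in direction. Olah, the thioesterase that ends the chain early and gives milk its medium-chain fatty acids, had 930.3, 1357 and 1380 CPM on day 8 and 1.83, 1.90 and 1.77 CPM in non-lactating glands, a log2 difference of 8.73 ± 0.18 (adjusted p = 2.6e-10). Fasn, the fatty acid synthase itself, had 12826, 15079 and 15417 CPM on day 8 and 16246, 7403 and 16847 CPM in non-lactating glands. The groups overlapped, and the difference was 0.19 ± 0.38 (adjusted p = 0.71), or −0.20 without non-lactating mouse 2 (adjusted p = 0.47). Scd1, the stearoyl-CoA desaturase, likewise had 37249, 30813 and 33330 CPM on day 8 and 55823, 15756 and 51004 CPM in non-lactating glands, with mouse 2 the lowest of all 6 and mice 1 and 3 the highest (−0.08 ± 0.54, adjusted p = 0.92; 0.25 without non-lactating mouse 1 and 0.18 without mouse 3, also 0.29 by the median of ratios). Of 18 genes of fatty acid synthesis 10 rose and 3 fell, but 3 and 10 on the deposited scale. The mitochondrial acetyl-CoA synthetase Acss1 rose 13.9-fold, the lipogenic factor Srebf1 1.9-fold and its escort Scap 2.46-fold. Mlxipl, the carbohydrate-responsive factor ChREBP, fell by 3.29 ± 0.22 on the log2 scale (adjusted p = 8.7e-07). Srebf1 and Scap were lower on the deposited scale (−0.99 and −0.61).

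Fads1 had 2028, 2149 and 2282 CPM on day 8 and 126.6, 124.1 and 134.7 CPM in non-lactating glands, and Fads2 had 583.1, 631.6 and 620.5 CPM on day 8 and 25.16, 40.38 and 26.06 CPM in non-lactating glands, without overlap (4.06 ± 0.14 and 4.31 ± 0.18, adjusted p = 1.4e-08 and 4.2e-08). The elongase Elovl5, which extends their products, rose 15.3-fold and Elovl1, which makes very long chains, 6.43-fold. Fads3, a related desaturase gene, fell by 2.99 ± 0.19 on the log2 scale (adjusted p = 5.7e-07). In all 7 of 12 tested desaturases and elongases rose and 3 fell (5 and 6 on the deposited scale); 1 fell by the median of ratios and 1 without day 8 mouse 2 or non-lactating mouse 1 or 3.

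Of 25 genes of fatty acid uptake and triglyceride assembly 8 rose and 14 fell (4 and 18 on the deposited scale; 9 and 8 by the median of ratios). Dgat2, which adds the last fatty acid of a triglyceride, had 11.90, 13.80 and 13.12 CPM on day 8 and 799.7, 793.2 and 847.7 CPM in non-lactating glands, a 58.5-fold lower level (−5.87 ± 0.14, adjusted p = 5.5e-10). Gpat4, the glycerol-phosphate acyltransferase known to be needed for milk fat in mice, had 335.8, 325.5 and 338.4 CPM on day 8 and 48.11, 45.05 and 68.98 CPM in non-lactating glands (2.63 ± 0.17, adjusted p = 7.1e-07). Agpat3 fell by 2.72 ± 0.15 on the log2 scale. Lpl, the lipase that frees fatty acids from lipoproteins, had 2889, 3247 and 3718 CPM on day 8 and 5331, 4864 and 5333 CPM in non-lactating glands, lower with an adjusted p of 0.025, a call lost without day 8 mouse 1 or 2 or non-lactating mouse 1 or 3 (adjusted p = 0.11, 0.089, 0.079 and 0.074).

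Cholesterol synthesis genes rose on the non-milk scale, 13 of 23 with 2 lower (18 and 0 by the median of ratios); on the deposited scale 3 rose and 13 fell. Hsd17b7, a late step of the pathway that also acts on steroids, had 189.0, 198.9 and 223.1 CPM on day 8 and 10.28, 11.73 and 9.36 CPM in non-lactating glands (4.16 ± 0.16, adjusted p = 2.2e-08). Sqle, the squalene epoxidase, rose 7.02-fold, the decarboxylase Mvd 6.17-fold and the farnesyl diphosphate synthase Fdps 4.08-fold. Mvk, a kinase of the pathway, and Sc5d, a late desaturase, were the members that fell (adjusted p = 0.0099 and 0.0058).

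In the prolactin pathway the receptor fell, while Stat5a and Elf5 rose. Prlr, the prolactin receptor, had 538.8, 498.7 and 557.9 CPM on day 8 and 1225, 3466 and 1203 CPM in non-lactating glands, of which mouse 2 was the highest. The groups did not overlap (−1.70 ± 0.35, adjusted p = 0.0019). Stat5a had 510.4, 356.8 and 377.6 CPM on day 8 and 112.4, 217.9 and 132.9 CPM in non-lactating glands, a log2 difference of 1.46 ± 0.24 (adjusted p = 0.00044), which was −0.46 on the deposited scale. Stat5b rose 2.04-fold. Elf5, the transcription factor of the alveolar lineage, had 1111, 1071 and 1092 CPM on day 8 and 26.58, 87.76 and 30.71 CPM in non-lactating glands and rose on both scales (4.68 ± 0.35 and 2.75). Akt1, a kinase of the same pathway, rose 4.54-fold and Tnfrsf11a, the receptor RANK, 4.96-fold. Socs3, an inhibitor of cytokine receptor signals, had 1.59, 1.41 and 1.76 CPM on day 8 and 66.47, 222.4 and 82.42 CPM in non-lactating glands, and the growth hormone receptor Ghr fell by 3.16 ± 0.15 on the log2 scale (adjusted p = 1e-07). Of the 18 genes of the list 9 rose and 7 fell, 4 without day 8 mouse 1 and 4 by the median of ratios; on the deposited scale 2 rose and 12 fell.

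Hormone-sensing luminal cells, which carry the receptors for estrogen and progesterone, had lower transcripts on both scales. All 11 tested markers fell (10 by the median of ratios), with a median log2 difference of −3.24, and without non-lactating mouse 2 all 11 fell with a median of −3.07. Among all genes 38.1% fell on the non-milk scale, with a median of −0.36, and 93.2% on the deposited scale. Pgr, the progesterone receptor, had 4.61, 4.13 and 5.45 CPM on day 8 and 167.1, 686.7 and 164.1 CPM in non-lactating glands (−5.55 ± 0.45, adjusted p = 3.1e-06). Foxa1, the pioneer factor of these cells, had 0.84, 3.12 and 4.53 CPM on day 8 and 201.6, 470.1 and 178.1 CPM in non-lactating glands (−6.21 ± 0.43, adjusted p = 1e-06). Esr1, the estrogen receptor, was a weaker case, with 155.8, 151.5 and 166.6 CPM on day 8 and 215.7, 231.4 and 205.2 CPM in non-lactating glands; its adjusted p of 0.014 was 0.059 without day 8 mouse 2. Several of the 15 largest decreases were highest in non-lactating mouse 2, the gland with the highest sum of these markers: Muc16 had 0.00, 0.00 and 0.18 CPM on day 8 and 42.62, 404.1 and 37.07 CPM in non-lactating glands, and Tox2, Ttc6 and Nrxn3 were also highest in mouse 2. Their link to those cells was not tested.

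General luminal markers split. Of 15, 6 rose and 7 fell, and on the deposited scale none rose and 12 fell. Krt19, a keratin of luminal cells, had 24.55, 22.87 and 13.31 CPM on day 8 and 133.9, 281.8 and 145.3 CPM in non-lactating glands, and Krt7 and the claudin Cldn4 fell by 3.01 ± 0.29 and 4.61 ± 0.39 on the log2 scale (adjusted p = 1.1e-05 and 4.1e-06). Esrp1, an epithelial splicing factor, rose 4.57-fold and the transcription factor Ovol1 4.4-fold. Tight junction genes gave 7 higher and 4 lower of 15 (1 and 10 on the deposited scale). Cldn8, a claudin that seals epithelia, had 303.9, 279.7 and 298.0 CPM on day 8 and 21.36, 50.20 and 24.95 CPM in non-lactating glands. The junction protein Cgnl1 fell by 2.39 ± 0.23 on the log2 scale (adjusted p = 9.6e-06).

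Myoepithelial genes rose on the non-milk scale, 9 of 15 with 1 lower, while on the deposited scale none rose and 13 fell. Myh11, smooth muscle myosin, had 300.4, 327.0 and 321.3 CPM on day 8 and 113.0, 150.4 and 105.5 CPM in non-lactating glands (1.37 ± 0.16, adjusted p = 4.1e-05). The contractile protein Cnn1 rose 2.23-fold and the keratin Krt15 3.8-fold. Acta2, smooth muscle actin, had 369.3, 316.2 and 311.3 CPM on day 8 and 194.4, 306.8 and 181.4 CPM in non-lactating glands; its adjusted p of 0.031 was 0.065 to 0.12 without any 1 day 8 mouse or without non-lactating mouse 1 or 3. Lgr6, a marker of basal progenitor cells, fell by 2.27 ± 0.32 on the log2 scale (adjusted p = 0.00014), and without non-lactating mouse 1 the members lower were 2. Of 7 nerve and glia genes 2 rose and 3 fell (1 and 5 on the deposited scale), and a single one rose without day 8 mouse 1 or non-lactating mouse 1 or 3. Sox10, also known in mammary basal and luminal progenitor cells, had 398.2, 339.9 and 361.6 CPM on day 8 and 42.04, 102.0 and 44.98 CPM in non-lactating glands, while Scn7a, a glial sodium channel, fell by 2.85 ± 0.18 on the log2 scale (adjusted p = 6e-07).

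**Figure D3:**
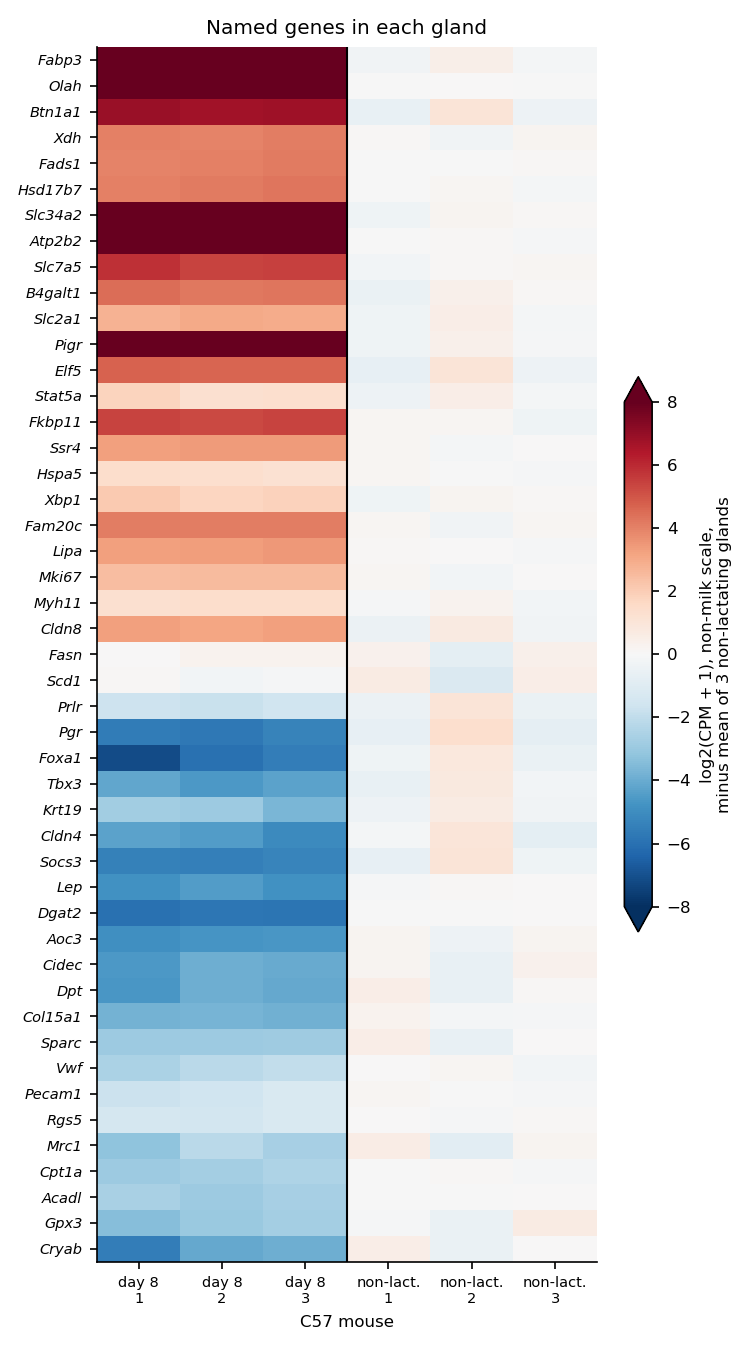
Heat map of log2(CPM + 1) on the non-milk scale minus the mean of the 3 non-lactating glands (color bar) for 47 named genes (rows) in 3 C57 day 8 glands (left) and 3 C57 non-lactating glands (right). Fabp3, Olah, Slc34a2, Atp2b2 and Pigr are past the end of the color bar at 8 on day 8; Fasn and Scd1 vary more between non-lactating glands than between groups. On the deposited scale Stat5a, Hspa5, Xbp1 and Myh11 turn negative.

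White adipocyte genes fell without exception among the 21 tested, on both scales, with a median log2 difference of −4.12 (−4.34 without non-lactating mouse 2). For all genes the share that fell was 38.1% on the non-milk scale, with a median of −0.36, and 93.2% on the deposited scale. The markers summed to 1397 to 1777 CPM on day 8 and 10768 to 18787 CPM in non-lactating glands. Lep, leptin, had 11.23, 15.11 and 11.64 CPM on day 8 and 327.6, 381.5 and 360.2 CPM in non-lactating glands (−4.72 ± 0.16, adjusted p = 1.3e-08). Aoc3, an amine oxidase of the fat cell surface, had 32.51, 37.38 and 38.54 CPM on day 8 and 1143, 756.2 and 1136 CPM in non-lactating glands. Sncg and Acvr1c, gamma-synuclein and an activin receptor of fat cells, were 58.2-fold and 26.7-fold lower. Mmd, Npr3 and Serpina3n were among the 15 largest decreases too, at 59.9-fold, 58.4-fold and 52.2-fold lower. Mup10 and Mup14 were 60.1-fold and 47.2-fold lower, but the major urinary protein genes are near-identical copies, and reads may be split between them. Of 8 tested brown and beige adipocyte markers 2 rose on both scales (Cidea and Otop1) and 3 fell (6 on the deposited scale). Ppargc1a, the coactivator of mitochondrial biogenesis in brown fat, was among the 3, with 4.19, 5.14 and 2.68 CPM on day 8 and 14.50, 13.08 and 19.07 CPM in non-lactating glands.

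Genes of stroma and vessels also fell. Of 17 fibroblast markers 16 fell, of 29 collagen and matrix genes 27 fell, of 13 endothelial markers 12 fell and of 7 pericyte markers 7 fell. Their medians were −2.62, −2.66, −1.25 and −1.37, while 38.1% of all genes fell, with a median of −0.36. On the deposited scale 16, 28, 13 and 7 fell, as did 93.2% of all genes. Gsn, gelsolin, had 120.6, 223.9 and 176.9 CPM on day 8 and 3447, 1736 and 3256 CPM in non-lactating glands. The fibroblast protein Dpt fell 18.7-fold and the receptor Pdgfra 5.71-fold. Col15a1, a collagen of basement membranes, had 35.69, 37.78 and 34.66 CPM on day 8 and 614.0, 456.9 and 479.9 CPM in non-lactating glands (−3.79 ± 0.15, adjusted p = 3e-08). Sparc, a matrix protein, was 7.32-fold lower. The exceptions were Tnc, tenascin C, with 341.6, 294.4 and 270.8 CPM on day 8 and 24.44, 16.43 and 20.30 CPM in non-lactating glands, higher on both scales, and the protease inhibitor Timp1, whose adjusted p of 0.013 was 0.051 without day 8 mouse 2. Without non-lactating mouse 1 a single fibroblast marker was called higher. The endothelial genes Vwf and Pecam1 fell 4.59-fold and 2.86-fold and the pericyte gene Rgs5 2.58-fold.

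Of 14 macrophage markers 11 fell and 1 rose, beside 38.1% and 14.8% of all genes. By the median of ratios 7 fell and 2 rose, where 3937 of all 14697 genes fell and 3687 rose. All 14 markers fell on the deposited scale, where 93.2% of all genes did. Mrc1, the mannose receptor of resident macrophages, had 7.62, 17.03 and 12.11 CPM on day 8 and 122.4, 45.00 and 94.03 CPM in non-lactating glands, where mouse 2 was the lowest (−2.68 ± 0.36, adjusted p = 0.00011). Lyz2 was 4.78-fold lower. The member that rose was Cd14, with 80.77, 49.77 and 50.09 CPM on day 8 and 28.61, 50.84 and 21.73 CPM in non-lactating glands; the groups overlap and its adjusted p of 0.029 was 0.051 to 0.13 without day 8 mouse 1 or 2 or non-lactating mouse 1 or 3. Of 6 tested neutrophil and mast cell genes 3 fell, 5 without non-lactating mouse 2, and S100a9 was at 0; Kit, which luminal progenitors also express, fell by 4.70 ± 0.36 on the log2 scale (adjusted p = 2.2e-06). Markers of skeletal muscle, keratinocytes and lymph node stroma were low in both groups. Skeletal muscle markers (10, none at 0 in all glands) summed to 4.61 to 9.67 CPM on day 8 and 10.56 to 19.77 CPM in non-lactating glands, keratinocyte markers (8, with Krtdap at 0) to 2.62 to 7.62 CPM on day 8 and 12.89 to 15.77 CPM in non-lactating glands. Lymph node stroma markers (7, none at 0) summed to 8.29 to 16.52 CPM on day 8 and 13.41 to 18.15 CPM in non-lactating glands. Blood markers (5, none at 0) were not as low, and summed to 211.3 to 471.0 CPM on day 8 and 478.1 to 1160 CPM in non-lactating glands. Of these 5 markers 3 fell and none rose, and 1 fell by the median of ratios or without day 8 mouse 1. Of 8 tested genes of handling stress 6 fell (4 by the median of ratios), among them Egr1, and none rose. The part of these differences in the other results was not tested.

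Genes of each step of the secretory pathway rose on the non-milk scale, and most were called lower on the deposited scale, as most of all genes were. Of 30 genes of entry into the endoplasmic reticulum and N-glycosylation 21 rose and 2 fell, of 38 genes of folding and the unfolded protein response 24 rose and 5 fell, and of 45 genes of COPI, COPII and Golgi trafficking 30 rose and 2 fell, with medians of 0.77, 0.72 and 0.60 against −0.36 over all genes. On the deposited scale the counts were 1 higher and 24 lower, 3 and 28, and 1 and 40. The shares of all genes were 14.8% higher and 38.1% lower on the non-milk scale, and 2.54% and 93.2% on the deposited scale. The sums of the folding genes were 6767, 6325 and 6529 CPM on day 8 and 3460, 3133 and 3269 CPM in non-lactating glands on the non-milk scale, without overlap. Without day 8 mouse 3 the folding genes that fell were 3, and by the median of ratios 1. For the entry genes that fell, Stt3b lost its call (adjusted p = 0.13 to 0.18) without day 8 mouse 2 or 3 or non-lactating mouse 1 or 3, which left Tusc3 (−0.99 ± 0.23, adjusted p = 0.0046).

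At the entry, Ssr4, a subunit of the translocon-associated complex, was counted in the list of folding genes. It had 487.5, 536.4 and 529.7 CPM on day 8 and 55.39, 44.91 and 50.07 CPM in non-lactating glands, and rose on both scales (3.35 ± 0.14, adjusted p = 3.7e-08, and 1.42). Srpr, the receptor that docks ribosomes at the membrane, rose 3.9-fold, and the signal peptidase subunits Spcs3 and Sec11c rose 3.97-fold and 5.34-fold. Among the folding genes, Fkbp11, a prolyl isomerase of secretory cells, had 106.1, 100.8 and 107.9 CPM on day 8 and 1.90, 1.90 and 1.04 CPM in non-lactating glands (5.36 ± 0.21, adjusted p = 2.9e-08). P4hb, the protein disulfide isomerase, had 1046, 1173 and 1135 CPM on day 8 and 279.9, 230.5 and 238.6 CPM in non-lactating glands. Hspa5, the chaperone BiP, had 212.8, 198.8 and 183.2 CPM on day 8 and 86.35, 78.17 and 73.28 CPM in non-lactating glands, a 2.48-fold difference (1.31 ± 0.14, adjusted p = 2.1e-05) that was −0.60 on the deposited scale. Xbp1, the transcription factor of secretory expansion, rose 3.74-fold and was −0.02 on the deposited log2 scale. Derl1 and Dnajc10, genes of degradation and disulfide reduction, fell by 0.91 ± 0.16 and 0.76 ± 0.16 on the log2 scale (adjusted p = 0.0008 and 0.0026). Past the endoplasmic reticulum, Fam20c, the Golgi kinase that phosphorylates caseins, had 276.7, 276.5 and 270.5 CPM on day 8 and 16.84, 12.17 and 16.54 CPM in non-lactating glands (4.10 ± 0.16, adjusted p = 2.8e-08). The cargo receptor pair Lman1 and Mcfd2 rose 3.38-fold and 4.13-fold and the protease Furin 3.58-fold, while the coat subunits Sec23a and Sec24b fell by 0.78 ± 0.15 and 0.96 ± 0.14 (adjusted p = 0.0014 and 0.00021).

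The sites known as ER stress elements are shown for 4 of the folding genes that rose. The letters searched were CCAAT and CCACG with 9 bases of any kind between them, on both strands, in the 250 bases before the RefSeq start. It was found in 9 of the 29 folding genes in the promoter table and in 0.113% of all 32851 promoters. It was found in 0 of 24 entry genes and 0 of 38 trafficking genes there. Genes were again counted by any of their promoters, whereas the 0.113% is a share of promoters. Of the 9 genes 6 rose on the non-milk scale and 3 did not pass the test. The capitals mark the motif, in RefSeq sequence of build GRCm38.p6 on the strand of the gene, with 4 bases on each side; in Derl3 the motif is on the opposite strand. The windows are chr2:34772021-34772047 (plus) for Hspa5, chr10:75893238-75893264 (plus) for Derl3, chr14:118937823-118937849 (plus) for Dnajc3 and chr19:6046528-6046554 (plus) for Syvn1. The motif ends 47, 138, 87 and 26 bases before the start.
Hspa5: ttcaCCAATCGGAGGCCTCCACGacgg
Derl3: ctacCGTGGGACTTCCCCATTGGctag
Dnajc3: acaaCCAATCAGCGCCAACCACGaccc
Syvn1: gcaaCCAATCGGCGGTAGCCACGggaa

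Derl3, which acts in the degradation of misfolded proteins and is also a plasma cell marker, had 59.91, 47.35 and 52.86 CPM on day 8 and 1.79, 0.51 and 1.55 CPM in non-lactating glands (4.62 ± 0.27, adjusted p = 3.9e-07). The cochaperone Dnajc3 and the ubiquitin ligase Syvn1 rose 2.03-fold and 1.62-fold (1.02 ± 0.14 and 0.69 ± 0.13, adjusted p = 0.0001 and 0.0013). The 4 genes with the shown sites thus differed widely in size of change. Dnajc3 and Syvn1 were named for their sites, after their values were seen.

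The integrated stress response, which links amino acid shortage and unfolded proteins to translation, gave 10 higher and 3 lower of 22 tested genes (1 and 15 on the deposited scale, 13 and 0 by the median of ratios); the lower ones were 1 without day 8 mouse 1 or 3 or non-lactating mouse 1. Atf4, its transcription factor, had 285.9, 200.5 and 217.7 CPM on day 8 and 71.06, 88.55 and 69.77 CPM in non-lactating glands (1.60 ± 0.17, adjusted p = 2.3e-05). The ATF4 targets Asns and Trib3, asparagine synthetase and a pseudokinase, rose 4.65-fold and 5.45-fold. Of 44 cytosolic ribosomal protein genes 17 rose and 1 fell, beside 14.8% and 38.1% of all genes, with a median of 0.37. All 44 fell on the deposited scale with a median of −1.53, where 93.2% of all genes fell with a median of −1.9. By the median of ratios 39 rose. The count of those that rose was 28 without non-lactating mouse 2 and 11 without mouse 3. Rpl32 rose 1.85-fold. The gene that fell, Rpl22, had an adjusted p of 0.034 that was 0.05 to 0.12 without any 1 of the day 8 mice; 2 fell without non-lactating mouse 3.

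Few of the genes that mitochondrial DNA encodes passed the test on the non-milk scale. The 13 genes of the mitochondrial DNA summed to 102355, 98600 and 113354 CPM on day 8 and 123724, 107469 and 147065 CPM in non-lactating glands, which overlap. Of them 2 fell and 0 rose, with a median of −0.18. All 13 fell on the deposited scale, where 93.2% of all genes did. By the median of ratios 1 rose and 0 fell, with a median of 0.18, so that both lower calls were lost (adjusted p = 0.1 for mt-Nd6 and 0.22 for mt-Nd5). The genes called on the non-milk scale were mt-Nd6, with 804.2, 1031 and 1299 CPM on day 8 and 1902, 1668 and 2093 CPM in non-lactating glands, and mt-Nd5, whose adjusted p of 0.021 was 0.062 to 0.092 without day 8 mouse 1 or 2 or non-lactating mouse 1 or 3. Without non-lactating mouse 2, 3 fell and 1 rose. Of 52 nuclear genes of the respiratory chain 13 rose and 3 fell (25 and 1 by the median of ratios), and 9 fell without non-lactating mouse 2. Ndufc2, a subunit of complex I, rose 3.07-fold, and Sdha and Sdhc of complex II fell 1.7-fold and 1.74-fold. On the deposited scale none of the 52 rose and 49 fell.

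Pdhb and Dlat, parts of the pyruvate dehydrogenase complex, had 301.2, 285.6 and 291.6 CPM and 275.8, 292.1 and 299.2 CPM on day 8, against 107.7, 67.98 and 108.2 CPM and 97.64, 67.13 and 100.2 CPM in non-lactating glands (1.65 ± 0.19 and 1.72 ± 0.17, adjusted p = 3.1e-05 and 1.3e-05); on the deposited scale they were −0.27 and −0.20 and did not pass the test. The carrier Mpc1 rose 2.78-fold, while Idh3a and Dlst, enzymes of the cycle that follows, fell 3.61-fold and 2.24-fold. Of the 27 genes of pyruvate entry and the citric acid cycle 11 rose and 8 fell, 13 without non-lactating mouse 2 and 4 by the median of ratios; on the deposited scale none rose and 25 fell. Pdk3 and Pdp1, a kinase and a phosphatase of the pyruvate dehydrogenase complex, were among those that fell. Of 24 genes of fatty acid oxidation 17 fell and 2 rose, against 23 and 1 on the deposited scale and 9 and 2 by the median of ratios. Cpt1a, the gate for fatty acids into mitochondria, had 12.74, 14.71 and 17.65 CPM on day 8 and 102.0, 109.6 and 95.45 CPM in non-lactating glands (−2.70 ± 0.17, adjusted p = 5.7e-07). Acadl fell 6.59-fold. The 2 that rose were uncoupling proteins. Ucp3 had 340.6, 297.4 and 333.7 CPM on day 8 and 14.63, 9.85 and 17.27 CPM in non-lactating glands, and it rose on both scales, and Ucp2 rose 2.48-fold and was −0.62 on the deposited scale.

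Mitochondrial chaperones and proteases gave 3 higher and 6 lower of 24 tested, 2 to 7 lower without 1 mouse (2 without day 8 mouse 2 or 3 or non-lactating mouse 1, 3 without non-lactating mouse 3), with a median of −0.08; the median of ratios gave 11 higher, 2 lower and a median of 0.27. Genes of mitochondrial shape, biogenesis and mitophagy gave 3 higher and 4 lower of 24, with 1 higher without day 8 mouse 1, and a median of −0.13; the median of ratios gave 5 higher, 3 lower and a median of 0.22. No gene of either list rose on the deposited scale. Clpx, a matrix unfoldase, rose 3.59-fold, while the fusion protein Mfn2 fell 2.99-fold and the mitophagy receptor Bnip3 2.35-fold. Its partner in fusion Mfn1 had 64.10, 58.13 and 78.00 CPM on day 8 and 33.27, 48.54 and 37.45 CPM in non-lactating glands, higher without overlap (adjusted p = 0.0065), while on the deposited scale it was lower.

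Of 26 peroxisomal genes 14 fell and 3 rose (10 and 5 by the median of ratios), with a median of −0.5. On the deposited scale none of them rose and 24 fell. Across all genes 38.1% fell and 14.8% rose on the non-milk scale, with a median of −0.36, and 93.2% fell on the deposited scale. Abcd2, a carrier of very long-chain fatty acids, had 11.06, 11.89 and 12.57 CPM on day 8 and 343.9, 251.2 and 362.8 CPM in non-lactating glands (−4.62 ± 0.17, adjusted p = 2.2e-08), while its relative Abcd3 rose 3.13-fold. Phyh, of phytanic acid oxidation, and Cat, catalase, fell 17.4-fold and 4.79-fold. Of 35 lysosomal genes 9 rose and 12 fell, with a median of −0.24; by the median of ratios 10 rose and 7 fell, with a median of 0.12. Lipa, the acid lipase, had 917.7, 943.4 and 1033 CPM on day 8 and 98.71, 94.86 and 86.88 CPM in non-lactating glands and rose on both scales (3.35 ± 0.14, adjusted p = 3.2e-08, and 1.43). Cd63 and Hexa fell 5.23-fold and 6.18-fold. Autophagy genes gave 8 higher and 4 lower of 24, 3 or 4 higher without day 8 mouse 2 (3) or 3 (3) or non-lactating mouse 1 (4) or 3 (4), and all 24 fell on the deposited scale; by the median of ratios 13 were higher. The receptor Nbr1 rose 2.59-fold and Gabarapl1 fell 2.07-fold. Of 20 antioxidant genes 11 fell and 3 rose (9 and 5 by the median of ratios), beside the 38.1% and 14.8% of all genes. Gpx3 was among those that fell, with 142.9, 193.0 and 223.8 CPM on day 8 and 1414, 1022 and 2307 CPM in non-lactating glands. The small heat shock protein Cryab fell to 1.01, 4.63 and 5.18 CPM on day 8, against 134.7, 62.80 and 95.36 CPM in non-lactating glands.

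Of 25 cell cycle genes 13 fell and 2 rose, while 38.1% of all genes fell and 14.8% rose; by the median of ratios 3 fell. The lower ones were 5 without day 8 mouse 2 and 6 without day 8 mouse 3 or non-lactating mouse 3, shares below that of all genes. Mki67, a marker of cycling cells, was one that rose, with 236.4, 247.5 and 246.9 CPM on day 8 and 47.80, 36.29 and 42.63 CPM in non-lactating glands, higher on both scales (2.51 ± 0.15, adjusted p = 3.8e-07, and 0.59). The replication helicase genes Mcm3 and Mcm6 fell 4.1-fold and 2.84-fold and the cyclin Ccnd2 11.8-fold. Without day 8 mouse 1 or 3 or non-lactating mouse 1 or 2 a single member rose. Genes of involution and acute phase gave 7 higher and 9 lower of 20. Igfbp5, known to rise when the gland regresses, had 129.8, 90.27 and 68.95 CPM on day 8 and 1564, 3140 and 1272 CPM in non-lactating glands, while Clu and Lbp rose 7.83-fold and 6.79-fold and were also higher on the deposited scale (1.04 and 0.84). Interferon genes gave 1 higher and 10 lower of 17 (2 and 6 by the median of ratios), Oasl2 among them at 4.4-fold lower; the higher one, Irf9, lost its call without day 8 mouse 3 or non-lactating mouse 3 (adjusted p = 0.072 and 0.051), and 2 rose without non-lactating mouse 1.

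Clock genes split into 7 higher and 8 lower of 19, with a median of −0.35 (0.01 by the median of ratios). Dbp, an output gene of the clock, had 1.01, 3.43 and 2.50 CPM on day 8 and 51.63, 54.33 and 77.30 CPM in non-lactating glands, and Per3 fell 6.44-fold. Npas2 and Rora rose 4.28-fold and 6.3-fold. The time of day at which glands were taken is not given in the sources used here, so its part cannot be told apart from that of lactation. Polyamine genes gave 6 higher and 4 lower of 16 (3 and 12 on the deposited scale, 9 and 3 by the median of ratios). Odc1, the first enzyme of polyamine synthesis, had 183.1, 201.0 and 201.8 CPM on day 8 and 22.36, 34.27 and 27.33 CPM in non-lactating glands, its regulator Azin1 rose 8.62-fold, and the spermine synthase gene Sms fell 6.53-fold.

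**Figure D4:**
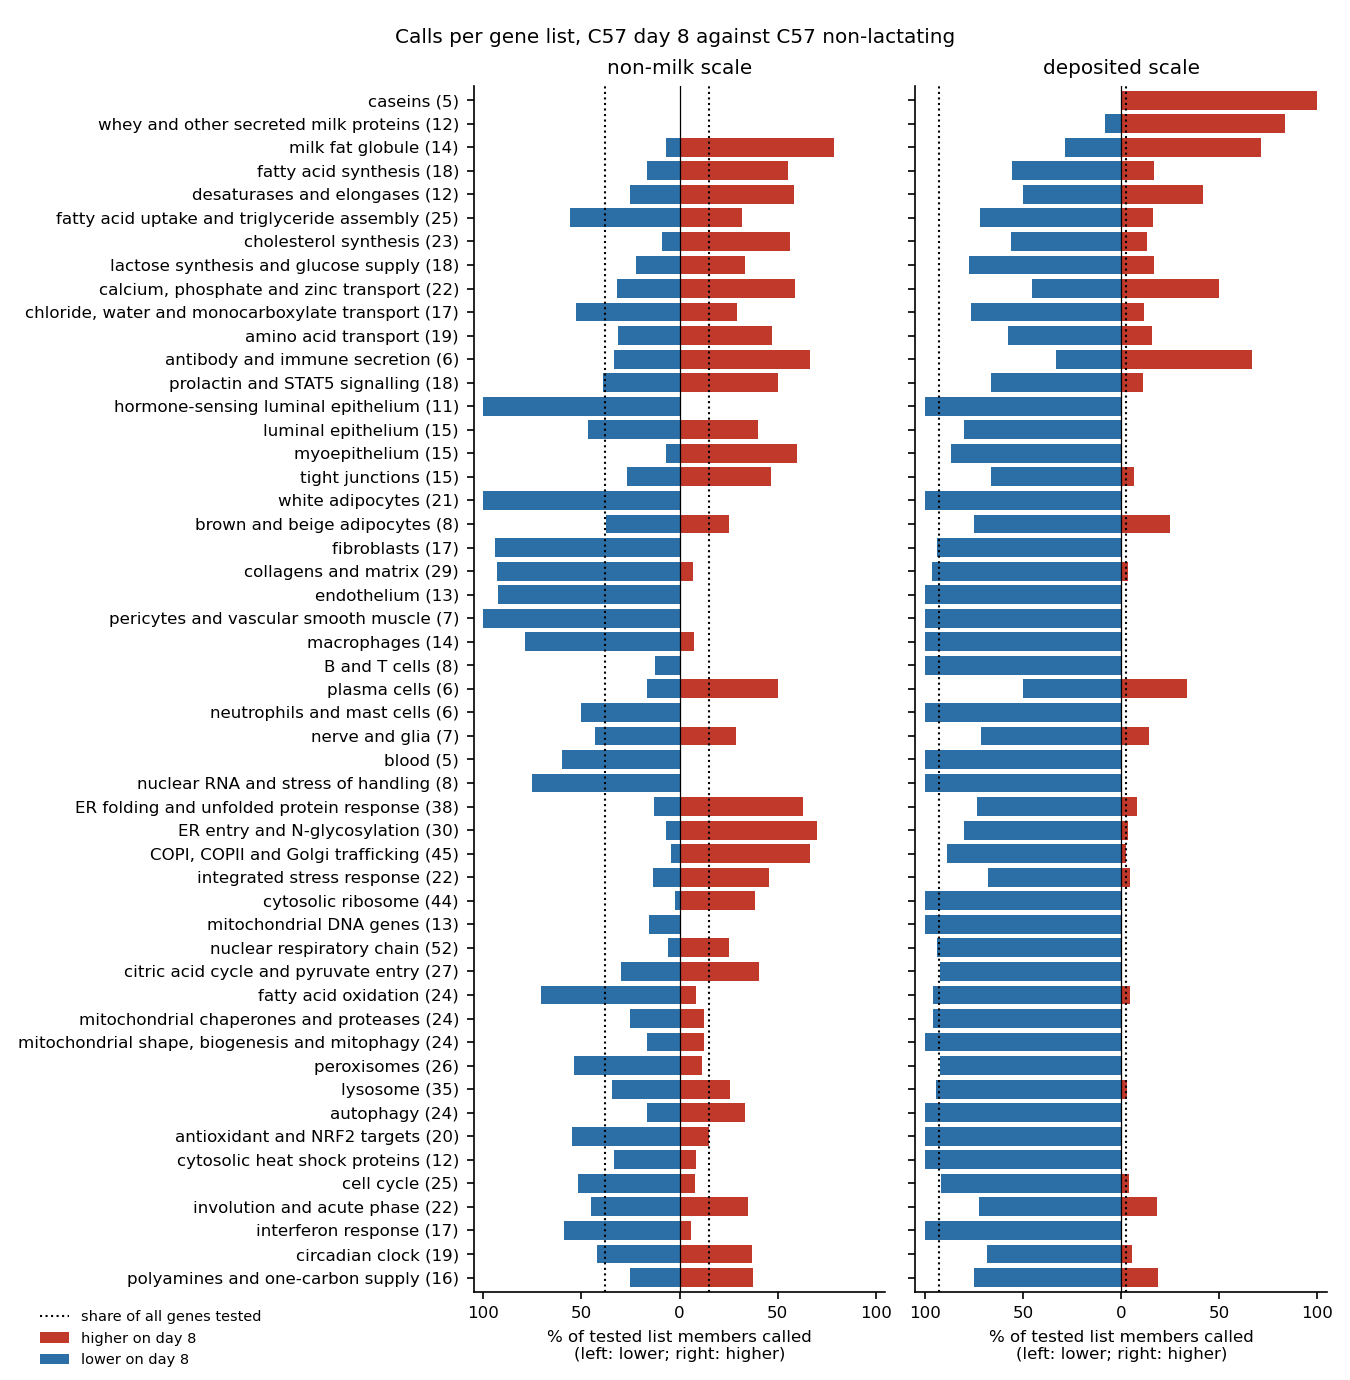
Percent of the tested members of each gene list (rows, number tested on the deposited scale in parentheses) called higher (right of 0) or lower (left of 0) on C57 day 8 than in C57 non-lactating glands, on the non-milk scale (left panel) and the deposited scale (right panel), limma adjusted p below 0.05. Dotted lines give the share of all genes tested (14.8% and 38.1%, then 2.54% and 93.2%); milk protein lists are tested on the deposited scale alone, and most lists that rose on the non-milk scale, such as the secretory pathway, turn lower on the deposited scale.

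The lowest non-lactating levels were also set out as a percent of day 8. Among 253 genes with over 100 CPM on day 8, 10 had a mean non-lactating level under 0.5% of their day 8 level: Glycam1, Csn1s2a, Fabp3, Slc34a2, Lao1, Csn2, Wap, Csn1s2b, Cel and Csn1s1. The values in single glands ran from 0.221 to 0.496%, with medians of 0.374, 0.372 and 0.378% in non-lactating mice 1, 2 and 3. In NZB non-lactating glands the same 10 genes had medians of 2.36, 1.14 and 1.95% of the NZB day 8 level. The 10 genes were chosen for their low C57 percent, so their narrow C57 range and the higher NZB percent are descriptions. The genes next in order lay just above the limit. Olah had 0.577, 0.598 and 0.559% and Atp2b2 0.651, 0.718 and 0.625% in C57 non-lactating mice 1, 2 and 3. The folds of these genes have the non-lactating level in the denominator, and its source was not tested.

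**Figure D5:**
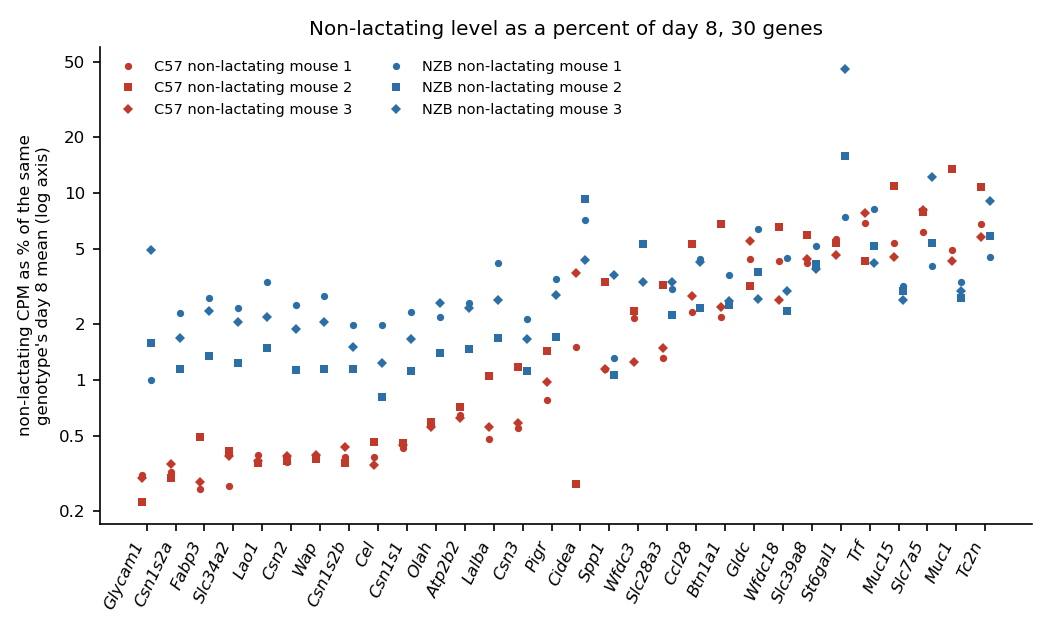
Level of 30 genes in each non-lactating gland as a percent of the day 8 mean of the same genotype (vertical log axis), for 3 C57 mice (red) and 3 NZB mice (blue), in the order of the C57 mean. The first 10 genes, chosen for a C57 mean under 0.5%, lie at 0.221 to 0.496% in all 3 C57 glands. The NZB medians over these genes are 1.14 to 2.36%.

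The day 8 response of C57 glands was set against that of NZB glands (3 NZB glands on day 8 and 3 NZB non-lactating glands, NZB on BL/6) on the non-milk scale, over 12 mice. The difference of the responses was called for 13 of 14697 genes (0.0885%), 6 positive and 7 negative, and 1614 genes had an unadjusted p under 0.05. For Lao1 the day 8 levels of the genotypes overlapped and the non-lactating levels did not. Lao1 had 10216, 16223 and 15102 CPM in C57 day 8 glands and 11042, 12048 and 12460 CPM in NZB day 8 glands, but 14.15, 12.85 and 13.13 CPM in C57 non-lactating glands against 106.7, 46.78 and 68.85 CPM in NZB non-lactating glands. Its response differed by 2.51 ± 0.37 on the log2 scale (C57 minus NZB, adjusted p = 0.028), and those of Slc34a2 and Fabp3 by 2.19 ± 0.32 and 2.35 ± 0.38 (adjusted p = 0.025 and 0.038). These 3 genes are among the 10 with the low percent above. Cldn8 was the tight junction gene with a smaller rise in C57 (3.25) than in NZB (6.22), a difference of −2.97 ± 0.43 (adjusted p = 0.025). The count of 13 rests on single mice: it was 1 without C57 day 8 mouse 2 or 3, C57 non-lactating mouse 1 or NZB day 8 mouse 1 or 3, 4 or 5 without NZB day 8 mouse 2 (4) or C57 day 8 mouse 1 (5), 7 or 8 without C57 non-lactating mouse 3 (7) or 2 (8), 165 without NZB non-lactating mouse 2 and 332 without NZB non-lactating mouse 1.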

How the data were processed

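PolyA RNA of snap frozen inguinal mammary glands was sequenced, per the labels. The authors deposited gene values that, from the values themselves, are log10 of CPM + 1 (counts per 1000000 reads), in 1 table of 32544 genes and 48 columns, 2 columns for each of the 24 samples. The submitters' processing notes name the builds GRCm38 and mm10; the sources used here do not name an aligner or counter. The log10 values were turned back to CPM and the 2 columns of a mouse averaged. Each value came out as a whole number of reads within 0.05, so the depth of each gland was recovered; the columns of the 6 C57 glands held 2174916 to 22147437 reads, which limits the precision of low genes. Date-like symbols (27) were not named.

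On the non-milk scale the 17 genes of caseins and whey and other secreted milk proteins were left out and the CPM of each gland rescaled to 1000000. Genes with CPM above 1 in at least 3 of the 6 mice were tested with limma 3.58.1 in R 4.3.3 (lmFit and eBayes with trend) on log2(CPM + 1), with Benjamini-Hochberg adjustment over all genes and a threshold of 0.05; fold changes on that scale understate the change of low genes. The response of C57 was set against that of NZB by an interaction term over 12 mice. The genes tested there were those that passed the filter in the 6 C57 mice, so genes expressed in NZB alone could not be called. The milk protein share was compared with a 2-sided exact permutation test. Tables and tests were made in Python 3.11.15 with pandas 2.3.3, numpy 2.4.6 and scipy 1.17.1, figures with matplotlib 3.10.9, and the fits were tested on simulated data. Promoters came from a RefSeq table of GRCm38.p6 and gene positions from GENCODE.

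The genes named are the largest changes without overlap between groups (up to 15 each way, with a group mean of log2(CPM + 1) of at least 5), the milk protein genes, a set of regulators, and of each of 54 gene lists up to 4 members with the smallest adjusted p, up to 2 called in the opposite direction and the 1 with the highest level; not every gene the rule gives is reported here. The comparison, the lists and the genes were chosen with earlier results of these data known, and a list is described by counts alone. Alternatives were another pseudocount, no filter, all 24 samples in the fit, a replicate block, the second column of each mouse, median-of-ratios scaling, a wider non-milk scale, limma voom on the recovered reads and leaving out each mouse.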

Additional observations from a re-analysis of the deposited data

Results flagged for a closer look

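The response to lactation, day 8 over non-lactating, differed between C57 and NZB glands for 13 genes by an interaction term in limma (log2, C57 minus NZB, adjusted p below 0.05), and each is given here with its difference. The response was higher in C57 for Ighg2c (4.64), Gm15662 (3.77), Lars2 (2.81), Lao1 (2.51), Fabp3 (2.35) and Slc34a2 (2.19). It was lower in C57 for Gm20716 (−5.37), 5430419D17Rik (−5.06), BB114814 (−4.83), Slc15a2 (−3.93), Cldn8 (−2.97), Capsl (−2.80) and Syt17 (−2.18).

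Lars2, the mitochondrial leucyl-tRNA synthetase, had 219.5, 166.9 and 274.9 CPM in C57 day 8 glands and 27.47, 32.90 and 17.68 CPM in C57 non-lactating glands. In NZB it had 57.34, 32.07 and 38.12 CPM on day 8 and 31.44, 53.76 and 25.10 CPM in non-lactating glands, which overlap. Slc15a2, a peptide transporter, had 29.66, 40.60 and 43.25 CPM in C57 day 8 glands and 37.83, 79.84 and 27.36 CPM in C57 non-lactating glands. In NZB it had 74.76, 30.53 and 77.05 CPM on day 8 and 2.77, 3.95 and 3.42 CPM in non-lactating glands. Ighg2c, an antibody heavy chain gene, had 6.54, 10.38 and 11.09 CPM in C57 day 8 glands and 0.07, 0.00 and 0.19 CPM in C57 non-lactating glands, against 7.76, 8.11 and 3.76 CPM in NZB day 8 glands and 21.69, 17.03 and 16.77 CPM in NZB non-lactating glands. BB114814 was at 0.00 CPM in all C57 day 8 glands and at 55.70, 62.31 and 17.71 CPM in C57 non-lactating glands, and no NZB gland exceeded 1.67 CPM. Genes entered this comparison by their CPM in the C57 glands alone, so it was not symmetric between genotypes. BB114814, 5430419D17Rik, Capsl and Syt17 entered only through the C57 non-lactating glands where they are high. Ighg2c and Gm15662 entered only through the C57 day 8 glands.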

How the results depend on the processing

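The total of genes called on day 8, both directions together, stayed within 1.5 times under each alternative run (the median-of-ratios and wider scales were run against the non-milk scale alone). By direction it did not: by the median of ratios 3687 genes were higher and 3937 lower, against 2179 and 5598. Of 104 counts of list members higher or lower, 31 moved by over 1.5 times under that scaling. The count of genes whose response differed between C57 and NZB was 130 with all 24 samples in the fit and 8 with a pseudocount of 0.25 CPM, against 13; without 1 mouse it ran from 1 to 332. The milk protein difference was 72.51 to 74.91 percentage points without 1 mouse, where the smallest exact permutation p is 0.2. Of the named genes, Fasn (0.19) ran from −0.20 without non-lactating mouse 2 to 0.39 without mouse 3. Scd1 (−0.08) was 0.29 by the median of ratios, 0.01 on the wider non-milk scale, and without 1 mouse it ran from −0.66 to 0.25 (0.18 without non-lactating mouse 3). Slc15a2 (−0.22) was 0.13 by the median of ratios and ran from −0.55 to 0.21 without 1 mouse. None of these passed the test, and the cause was not tested. With the replicate number as a block, 1975 genes were higher and 5141 lower on the non-milk scale, and 12 genes differed between genotypes, of which 8 were among the 13. Deviations from the group mean in same-numbered C57 mice had r = −0.148, −0.159 and −0.016. With 3 mice a group the deviations are tied to each other, so these r values cannot show whether mice shared a litter or a day. The depth of non-lactating mouse 2, with columns of 2174916 and 11888708 reads, limits what can be seen of low genes.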

Other observations

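Grip2, known as a scaffold protein of glutamate receptors, was named after its values were seen, for its level. On the non-milk scale it had 77326, 108222 and 42358 CPM on day 8 and 11073, 14000 and 8625 CPM in non-lactating glands, without overlap (log2 difference 2.68 ± 0.46, limma SE). On the deposited scale it had 22643, 26833 and 10362 CPM on day 8 and 11023, 13938 and 8584 CPM in non-lactating glands, which overlap (0.75 ± 0.39, adjusted p = 0.084), so the call was lost. Its source was not tested. Grip2 is part of the total of the non-milk scale, so its rise lowers the day 8 values of other genes there. The wider non-milk scale also leaves out Grip2, Scd1 and mt-Co1. On it 2501 genes were higher and 5199 lower, against 2179 and 5598.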
